A study of Rattus norvegicus with 12 samples.

Results

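Lungs of rats with shock-induced lung injury were compared with the lungs of 3 groups that had none. All rats were male Sprague-Dawley rats with a laparotomy and cannulated vessels, and all lungs were taken 3 h after a 90 min shock or sham-shock period, 4.5 h after its onset. The injured group, T/HS (trauma and hemorrhagic shock), was bled to a mean arterial pressure of 30 mmHg, which was held for the 90 min, and the heparin-treated shed blood was then given back. T/SS rats (trauma and sham shock) were not bled. T/HS-LDL and T/SS-LDL rats were treated like T/HS and T/SS rats after their mesenteric lymph duct had been tied off and cut (LDL, lymph duct ligation). Per the study's design text, T/HS rats alone had lung injury. They were also the only rats that combined shock with an open lymph duct, so injury cannot be told apart from that combination. All 12 arrays of the series entered the comparison: 3 injured and 9 uninjured.

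Mesenteric lymph drains the gut into the great veins just before the blood reaches the lung, and tying the duct is known to protect the lung after shock. Acute lung injury of this kind involves leaky capillaries, neutrophils held in the lung and oxidants formed there. Cytokines, interferon-induced genes, antioxidant enzymes, protein-folding chaperones and vascular growth factors are among the genes usually followed in it. In whole lung, fewer cells of a type and less RNA per cell cannot be told apart.

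One pair of arrays in each group was near-identical: replicates 2 and 3 in T/SS, and replicates 1 and 3 in each of the other groups. Their log2 differences had a robust SD of 0.00993 to 0.0548, while the 8 other within-group pairs had 0.164 to 0.232. Each such pair was averaged and counted as 1 sample, although the labels call all arrays biological replicates. This left 2 injured samples, the averaged T/HS sample (replicates 1 and 3) and T/HS replicate 2, and 6 uninjured samples. Intensities are the authors' RMA values, with array medians of 651 to 680 units. Lung markers were high: Sftpc (surfactant protein C), Ager (a marker of type I cells) and Hbb (globin) lay at the top of the scale, where no difference can be measured. Summed levels of all 13 sets of cell type markers overlapped between injured and uninjured samples. The 6 neutrophil markers summed to 35850 and 70786 units in the injured samples, 20733 to 43526 in both sham-shock groups and 61545 to 69968 in T/HS-LDL. RNA quality overlapped too, with a 3′ to 5′ signal ratio for GAPDH of 1.97 and 2.32 in injured and 2.03 to 2.90 in uninjured samples.

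Genes were counted as higher or lower when both injured samples lay above the highest or below the lowest of the 6 uninjured samples. This held for 1276 of 8740 probe sets (14.6%), 601 higher (6.88%) and 675 lower (7.72%). With each other group set against the remaining 6 samples in the same way, the either-side share was 7.63% for T/SS, 9.51% for T/SS-LDL and 3.14% for T/HS-LDL. In T/HS, wide margins were more frequent among lower than among higher probe sets. At least 0.25 log2 units outside the range, 80 probe sets were lower (0.915%) and 13 higher (0.149%) in T/HS, against 17 lower (0.195%) and 3 higher (0.0343%) in T/SS, 5 lower (0.0572%) and 13 higher in T/SS-LDL, and 0 lower and 3 higher (0.0343%) in T/HS-LDL. At 0.5 log2 units, T/HS had 11 lower probe sets (0.126%) and 1 higher (0.0114%), T/SS had 6 lower (0.0686%) and 0 higher, and T/SS-LDL and T/HS-LDL each had 0 lower and 1 higher (0.0114%). The difference between groups in these counts was not tested. In limma, with each uninjured group weighted equally, 0 of 8740 probe sets passed an adjusted p of 0.05 (percent called, 0). The smallest adjusted p was 0.184, and 1051 probe sets (12%) had an unadjusted p under 0.05. With the 6 uninjured samples pooled as 1 group, limma also called 0 at 0.05 and 25 at 0.10 (0.286%). Counting all 12 arrays as separate samples, which takes near-identical arrays as independent, gave 1408. Leaving out the averaged T/HS sample gave 156 calls, 1311 probe sets above the range and 1976 below it, and leaving out T/HS replicate 2 gave 4, 2430 and 1466, since 1 injured sample then sufficed. So "higher" and "lower" below describe the samples, and no gene is called changed.

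**Figure D1:**
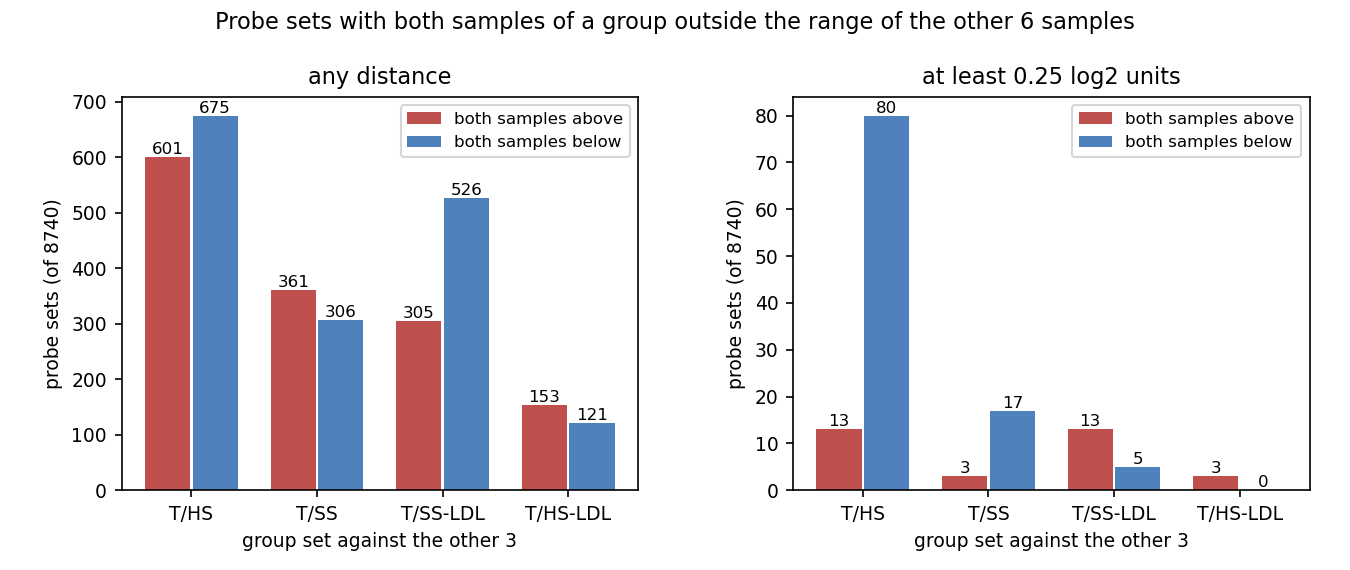
Number of probe sets (of 8740) in which both samples of a group lay above (red) or below (blue) all 6 samples of the other groups, at any distance (left) and by at least 0.25 log2 units (right). The T/HS bar for lower probe sets reaches 80 on the right, where the bars of the other groups end at 17 or less.

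Most of the probe sets outside the range lay close to it. The median distance was 0.04 log2 units for the higher and -0.08 for the lower ones. At the edge, Apc was just outside, with 419 and 427 units in injured samples against at most 419 in uninjured ones, and Afp was just inside, with 111 and 114 against at most 111. On the lower side, Ctps2 was just outside, with 619 and 638 units against at least 638, and Slc35b1 just inside, with 4617 and 4656 against at least 4654. The direction also went with signal. Over 4 equal bins of mean signal, from dim to bright, the share lower was 3.89%, 5.95%, 7.92% and 13.1%, and the share higher 10.6%, 8.05%, 5.86% and 3.02%. The part of signal level in the results below was not tested.

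The gene with the widest distance was Cat, catalase, which breaks down hydrogen peroxide. Its intensity was 318 in the averaged T/HS sample and 518 in T/HS replicate 2. It was 2182 and 2163 in T/SS, 3066 and 1439 in T/SS-LDL, and 1180 and 2341 in T/HS-LDL. Both injured samples lay far below all uninjured ones, and the nearest was the averaged T/HS-LDL sample. The log2 difference was -2.28 ± 0.37 (SE; 2 against 6 samples), with an adjusted p of 0.188 in limma. Against the single groups it was -2.42 for T/SS, -2.37 for T/SS-LDL and -2.04 for T/HS-LDL, comparisons that share the T/HS samples. A further Cat probe set was lower too (-1.02 ± 0.23), and the dimmest of the 3, at 115 to 139 units in uninjured samples, lay inside the range (-0.09 ± 0.07).

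Antioxidant enzymes as a list had 0 of 23 measured genes higher and 5 lower (21.7%), where all 4736 genes had 6.69% higher and 8.04% lower. Besides Cat these were Gpx2, a glutathione peroxidase (-0.63 ± 0.14), the peroxiredoxins Prdx2 (-0.36 ± 0.09) and Prdx1 (-0.32 ± 0.12), and the thioredoxin reductase Txnrd2. The count was 3 after quantile normalization, 9 below and 0 above the range without T/HS replicate 2, and 12 below and 3 above without the averaged T/HS sample. The median over the list was -0.12, against 0.02 over all genes. In the brightest signal bin 3 of 17 antioxidant genes were lower (17.6%), against 12.8% of all genes there. Gpx3 and Prdx6, with the highest signal of the list, were inside the range (-0.03 ± 0.07 and -0.09 ± 0.09) near the top of the scale. Sod1, the copper-zinc superoxide dismutase, named after its values were seen, had 1 of 3 probe sets lower (-0.69 ± 0.13) and the others inside (-0.10 ± 0.18 and -0.20 ± 0.10).

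Kit, the receptor for stem cell factor and a marker of mast cells, had 218 and 160 units in the injured samples. Uninjured samples had 522 and 552 in T/SS, 472 and 686 in T/SS-LDL, and 381 and 365 in T/HS-LDL. The groups did not overlap, and the T/HS-LDL samples lay between the injured and the sham-shocked ones. The log2 difference was -1.38 ± 0.17 (limma adjusted p, 0.184), and both Kit probe sets were lower. Tfpi, the inhibitor of the tissue factor pathway that starts clotting, had 195 and 192 units in injured samples. It had 404 and 302 in T/SS, 356 and 326 in T/SS-LDL and 328 and 291 in T/HS-LDL. The injured samples nearly coincided, and the difference was -0.78 ± 0.12. The other coagulation genes were mixed: F2r, a thrombin receptor, was lower (-0.28 ± 0.10), and F9, Fga and Proc were higher at low signal (Fga, 0.21 ± 0.08 on 1 of 3 probe sets, and Proc, 0.12 ± 0.08), which made 3 higher and 2 lower of 23. These shares were 13% and 8.7%, against 6.69% and 8.04% of all genes. After quantile normalization 1 coagulation gene was higher, and without T/HS replicate 2 there were 5 above and 8 below the range.

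The Krüppel-like transcription factors Klf4 and Klf9 were both lower. Klf4 had 1812 and 1651 units in injured samples. In uninjured samples it had 3068 and 2687 (T/SS), 3200 and 3298 (T/SS-LDL), and 2791 and 2673 (T/HS-LDL). The difference was -0.77 ± 0.09 (limma adjusted p, 0.184), and the second Klf4 probe set was lower as well. Klf9, which is induced by glucocorticoids, had 8966 and 9181 units against 13155 to 18248 (-0.74 ± 0.12), with its dimmer probe set inside the range (-0.55 ± 0.31). Of the 18 glucocorticoid-responsive genes measured, Klf9 was the 1 lower and Nr3c1, the glucocorticoid receptor, the 1 higher (0.29 ± 0.08, on 1 of 3 probe sets). Of 22 immediate early genes, Klf4 was the 1 lower and Btg1, an inhibitor of cell growth, the 1 higher (0.55 ± 0.13, with its dimmer probe set inside at 0.34 ± 0.18). Each count was 5.56% of the glucocorticoid list and 4.55% of the immediate early list. Of all genes 6.69% were higher and 8.04% lower. Without the averaged T/HS sample 8 immediate early genes were above the range and 2 below, and without replicate 2 these were 5 and 2.

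Among genes of vessels and lipid supply, Vegfa, Kdr and Lpl were lower. Vegfa, the growth factor that maintains alveolar capillaries, had 2551 and 3276 units in injured samples. Uninjured samples had 7980 and 5851 in T/SS, 4739 and 6373 in T/SS-LDL, and 4098 and 4738 in T/HS-LDL. The difference was -0.93 ± 0.18, and it was -1.24 against T/SS, -0.93 against T/SS-LDL and -0.61 against T/HS-LDL. Of 4 Vegfa probe sets 2 were lower and 2 inside, the brightest at -0.05 ± 0.15. Kdr, its main signalling receptor on endothelium, had 2172 and 1916 units against 2571 to 3422 (-0.48 ± 0.13), while its other receptor Flt1 was just above the range (0.21 ± 0.12). The summed level of the 5 endothelial markers, which include Kdr, was 12217 to 15106 units in injured and 12719 to 17368 in uninjured samples. Its part in the Vegfa and Kdr values was not tested. Lpl, lipoprotein lipase, was lower on all 3 of its probe sets. The widest Lpl difference, -1.28 ± 0.34, had 2953 and 1806 units in injured samples against 3827 to 8281. Acadm, a dehydrogenase of fatty acid oxidation, was lower too (-0.84 ± 0.18). The lipid list had 2 of 32 higher (6.25%, against 6.69% of all genes) and 4 lower (12.5%, against 8.04%). Without T/HS replicate 2, 7 lipid genes were above and 9 below the range, and without the averaged T/HS sample 3 and 11. Of the fat-cell markers in the lipid list, Plin1 was higher (0.28 ± 0.10), and Cfd (-0.14 ± 0.17) and Fabp4 (-0.53 ± 0.53) were inside the range.

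Maob, monoamine oxidase B, which degrades amines such as phenylethylamine, had 1161 and 1364 units in injured samples. It had 2640 and 2736 in T/SS, 3664 and 2730 in T/SS-LDL and 2004 and 2707 in T/HS-LDL (-1.10 ± 0.16; limma adjusted p, 0.188). Mapk12, a MAP kinase of the stress-activated p38 class, had the smallest p of the named genes. Its injured samples had 707 and 802 units, and its uninjured samples lay close together, from 1245 to 1485 (-0.80 ± 0.09; limma adjusted p, 0.184). A dimmer Mapk12 probe set was inside the range (-0.01 ± 0.13). Of 25 MAP kinases and phosphatases, 0 were higher (against 6.69% of all genes) and 5 lower (20%, against 8.04%). These 5 were Mapk12, the phosphatase subunits Ppp2cb (-0.49 ± 0.10) and Ppp3ca (-0.47 ± 0.14), and the kinases Map2k6 (-0.41 ± 0.08) and Map2k5. In the brightest signal bin 3 of 15 were lower (20%), against 12.8% of all genes there. Of the 25 genes, 12 had a difference above 0, and the median was -0.01. Without T/HS replicate 2, 2 were above and 8 below the range, and without the averaged T/HS sample 3 and 6.

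**Figure D2:**
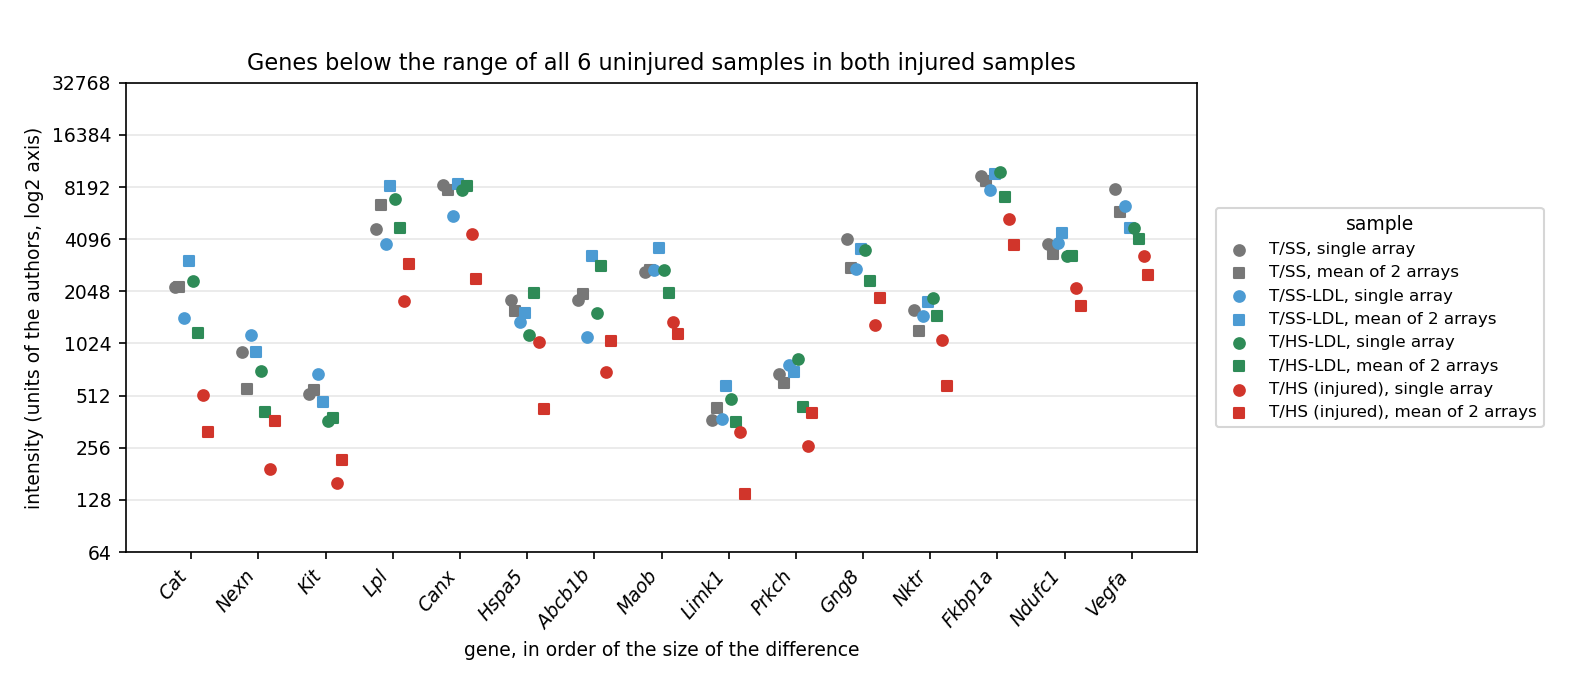
Intensity (log2 axis, authors' units) of the 15 genes with the largest difference among those below the uninjured range in both injured samples. Each symbol is 1 of the 8 samples, circles for single arrays and squares for means of 2 near-identical arrays. In each gene the 2 red symbols (T/HS) lie below the other 6, widest apart for Cat (318 and 518 against at least 1180 units).

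The remaining genes with large lower differences had varied roles. Nexn, an actin-binding protein of muscle, had 368 and 192 units against 414 to 1153 (-1.47 ± 0.33). Abcb1b, a drug efflux pump, had 1061 and 704 units against 1114 to 3278 (-1.18 ± 0.42). Limk1 (-1.03 ± 0.33), a kinase of the actin cytoskeleton, and Nktr (-0.98 ± 0.25), a cyclophilin-related protein, were lowest in the averaged T/HS sample. Prkch, a protein kinase C (-1.02 ± 0.26), and Gng8, a G protein subunit (1869 and 1313 units against at least 2342), were lowest in T/HS replicate 2. The brighter probe sets of Limk1 (-0.02 ± 0.08) and Prkch (-0.72 ± 0.27) and the dimmer one of Gng8 (0.06 ± 0.10) were inside the range. Fkbp1a, the prolyl isomerase that binds FK506, was lower on all 4 probe sets, with 3793 and 5331 units against at least 7209 on the most different (-0.97 ± 0.18). Zfp706, a zinc finger protein (-0.76 ± 0.11), Pgrmc1, a heme-binding membrane protein (-0.65 ± 0.09), and C8h15orf61 (-0.53 ± 0.08) differed little between the injured samples, and the dimmer Zfp706 probe set was inside (-0.01 ± 0.15). Hmgb1, a chromatin protein released from damaged cells, named after its values were seen, was lower on a probe set with 2466 and 3150 units against 3912 to 5525 (-0.75 ± 0.16).

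Protein-folding genes gave the second largest share of lower genes among 20 pathway lists. Of 29, 10 were lower (34.5%, against 8.04% of all genes) and 0 higher. The median difference was -0.24 over the list and lay below 0 in each injured sample (-0.18 in the averaged one, -0.26 in replicate 2). With replicate 2 left out 12 were below and with the averaged sample left out 15, and 0 above in either case. Canx, the calnexin chaperone of the endoplasmic reticulum, had 4228 and 5318 units in injured samples on its brightest probe set. It had 9886 and 9927 in T/SS, 11404 and 8261 in T/SS-LDL, and 9936 and 10403 in T/HS-LDL (-1.07 ± 0.14; limma adjusted p, 0.188). Of its 5 probe sets, 3 were lower and 2 inside. Hspa5, the main Hsp70-type chaperone of the endoplasmic reticulum, had 427 and 1042 units against 1152 to 1994 (-1.21 ± 0.35) on 1 probe set. Its brightest was inside (-0.29 ± 0.19), and the averaged T/HS sample was well below replicate 2. Taken by its brightest probe set, Hspa5 is not among the 10. Those were Canx, Dnaja2 (-0.74 ± 0.22), Cryab (-0.61 ± 0.09, with its dimmer probe set inside at 0.11 ± 0.34), Hspa9 (-0.55 ± 0.17, lower on 2 of 3), Hspd1, Hspe1, Hspa2, Hspb6, Pdia6 and Ppib. They work in the cytosol, in mitochondria (Hspa9, Hspd1 and Hspe1) and in the endoplasmic reticulum. Of the members with the highest signal, Hsp90ab1 was inside the range on all 4 probe sets (-0.25 ± 0.10 on the brightest). Hspb1 was inside on its brightest (-0.26 ± 0.18) and lower on 2 of its 4 (-0.66 ± 0.23 and -0.47 ± 0.10).

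Promoters of 4 chaperone genes lower on at least 1 probe set are shown because they carry the endoplasmic reticulum stress element. Through this site unfolded proteins are known to raise these genes. Of the 4, only Canx was lower on its brightest probe set, the rule used for the list. The element was searched for on both strands as CCAAT, any 9 bases and CCACG, in RefSeq windows from 250 bases before to 50 after the gene start (build GRCr8). Of 27457 genes with such a window 21 held it (0.0765%), and of 3879 on the array 7 did (0.18%): Calr, Canx, Hsp90b1, Hspa5, Ero1b, Foxd4 and Hnrnpa3. The first 4 were among the 410 genes with a window that were lower on at least 1 probe set (0.976%), and 0 of 356 higher genes held it. The motif was chosen after the values were seen and its share was not tested. Calr was lower on 1 of 3 probe sets (-0.57 ± 0.19), as was Hsp90b1 (-0.62 ± 0.20), and the brightest probe set of each was inside. Capitals mark the element, in the direction of the gene, with the sequence ending at or before the gene start.
Hspa5, chr3:38452948-38453015, plus strand: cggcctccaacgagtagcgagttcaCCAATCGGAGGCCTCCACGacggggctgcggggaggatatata
Canx, chr10:35158044-35158107, minus strand: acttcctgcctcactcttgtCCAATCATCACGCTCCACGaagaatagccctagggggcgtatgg
Hsp90b1, chr7:23012426-23012494, minus strand: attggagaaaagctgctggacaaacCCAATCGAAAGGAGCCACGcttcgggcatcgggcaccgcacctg
Hsp90b1, chr7:23012322-23012390, minus strand: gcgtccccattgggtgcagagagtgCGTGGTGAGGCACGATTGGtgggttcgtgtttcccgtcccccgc
Calr, chr19:40213117-40213178, plus strand: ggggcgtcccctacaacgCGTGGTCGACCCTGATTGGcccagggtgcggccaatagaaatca
In Hspa5, Canx and the first Hsp90b1 stretch the letters read as searched, and in the second Hsp90b1 stretch and in Calr as the reverse complement.

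The mitochondrial respiratory chain had the largest share of lower genes, 12 of 34 (35.3%, against 8.04% of all genes). It had 0 higher and a median of -0.13. Over all 58 of its probe sets, 1 was higher and 19 lower. Without T/HS replicate 2, 15 of the 34 genes were below and 3 above the range, and without the averaged T/HS sample 19 and 0. Signal level moved with this count, since 32 of the 34 lay in the brightest of the 4 signal bins. In that bin 12.8% of all genes were lower, against 37.5% of the chain's 32 and 35% of the 20 folding genes there. Ribosomal proteins had 13.3% of 30 there. Some of them, such as Rps29 and Rps16, lay at the top of the scale, where no difference can be measured. Ndufc1, a small subunit of complex I, the first enzyme of the chain, had 1686 and 2133 units in injured samples. It had 3854 and 3344 in T/SS, 4454 and 3910 in T/SS-LDL, and 3272 and 3258 in T/HS-LDL (-0.95 ± 0.12; limma adjusted p, 0.184). Both Ndufc1 probe sets were lower. Other lower members were Ndufa5 (-0.71 ± 0.24), Ndufa4 (-0.41 ± 0.11), Cyc1, the cytochrome of complex III (-0.46 ± 0.14), Cox8a, Uqcrfs1, Sdha and the carrier Slc25a4. Cox4i1 (0.01 ± 0.10) and Cox6a1 (-0.06 ± 0.08), subunits of cytochrome oxidase with the highest signal, were inside the range on their brightest probe sets. Cox6a1 was lower on 2 of 3 (-0.30 ± 0.11 and -0.33 ± 0.10) and Cox4i1 on 1 of 3 (-0.11 ± 0.07).

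Complex I genes were then counted beyond the list, after these values were seen. Genes with an Nduf symbol were taken, leaving out Ndufa4 and Ndufa4l2, which belong with cytochrome oxidase, and the assembly factor Ndufaf3. Of the 24 measured, 14 were lower (58.3%) and 0 higher, with a median of -0.35. Of all genes 8.04% were lower and 6.69% higher, and in the brightest signal bin 12.8% were lower. Most of the 24 had uninjured signals in the range of that bin, and the part of signal in this count was not tested. The count was 13 after quantile normalization, 14 (with 3 above) without T/HS replicate 2 and 19 without the averaged T/HS sample. Ndufab1 (-0.80 ± 0.18) had 3106 and 4139 units in injured samples against at least 5228, Ndufb3 (-0.63 ± 0.11) 2063 and 2317 against at least 3061, and Ndufb10 (-0.62 ± 0.12) 1309 and 1197 against at least 1627. Ndufs1, Ndufs7, Ndufs8, Ndufv2, Ndufv3, Ndufa8, Ndufa9, Ndufb6, Ndufb8 and Ndufb11 were inside the range, with differences from -0.23 to 0.20. A dimmer Ndufb6 probe set was lower (-0.34 ± 0.07).

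Xenobiotic metabolism genes had 6 of 31 lower (19.4%, against 8.04% of all genes), 1 higher (Ephx2, an epoxide hydrolase) and a median of -0.24. In the brightest of the 4 signal bins 3 of 20 were lower (15%), near the 12.8% of all genes there. After quantile normalization 3 of the 31 were lower. Without T/HS replicate 2, 4 were above and 10 below the range, and without the averaged T/HS sample 1 and 15. The lower ones included the efflux pump Abcc3 (-0.68 ± 0.11), the sulfotransferase Sult2a6 (-0.55 ± 0.09, on 1 of 3 probe sets) and the glutathione transferases Gsta4 (-0.50 ± 0.15, on 1 of 2) and Gstm2 (-0.49 ± 0.14). Por, which passes electrons to all microsomal P450 enzymes, went the other way. It had 4970 and 2742 units in injured samples against 1714 to 2273, with the averaged T/HS sample highest (0.91 ± 0.23), and 2 of its 3 probe sets were higher. Epithelial ion and water transport had 0 of 21 genes outside the range on either side, each taken by its brightest probe set. Over all 32 of their probe sets, 1 was higher and 0 lower. Scnn1a, a sodium channel subunit (0.12 ± 0.18), and Atp1b1, a sodium pump subunit (0.06 ± 0.14), had the highest signal. Without T/HS replicate 2, 7 transport genes were above and 2 below, and without the averaged T/HS sample 2 and 2. Adhesion and junction genes had 0 of 24 higher and 1 lower (Icam2, -0.49 ± 0.23), and matrix genes 1 of 32 each way. Over all 39 adhesion probe sets, 1 was higher and 2 lower. The adhesion share was 4.17% lower and the matrix share 3.12% each way, against 6.69% higher and 8.04% lower of all genes. Without replicate 2 the adhesion list had 5 above and 6 below and the matrix list 2 and 4, and without the averaged sample these were 3 and 4, and 6 and 5.

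**Figure D3:**
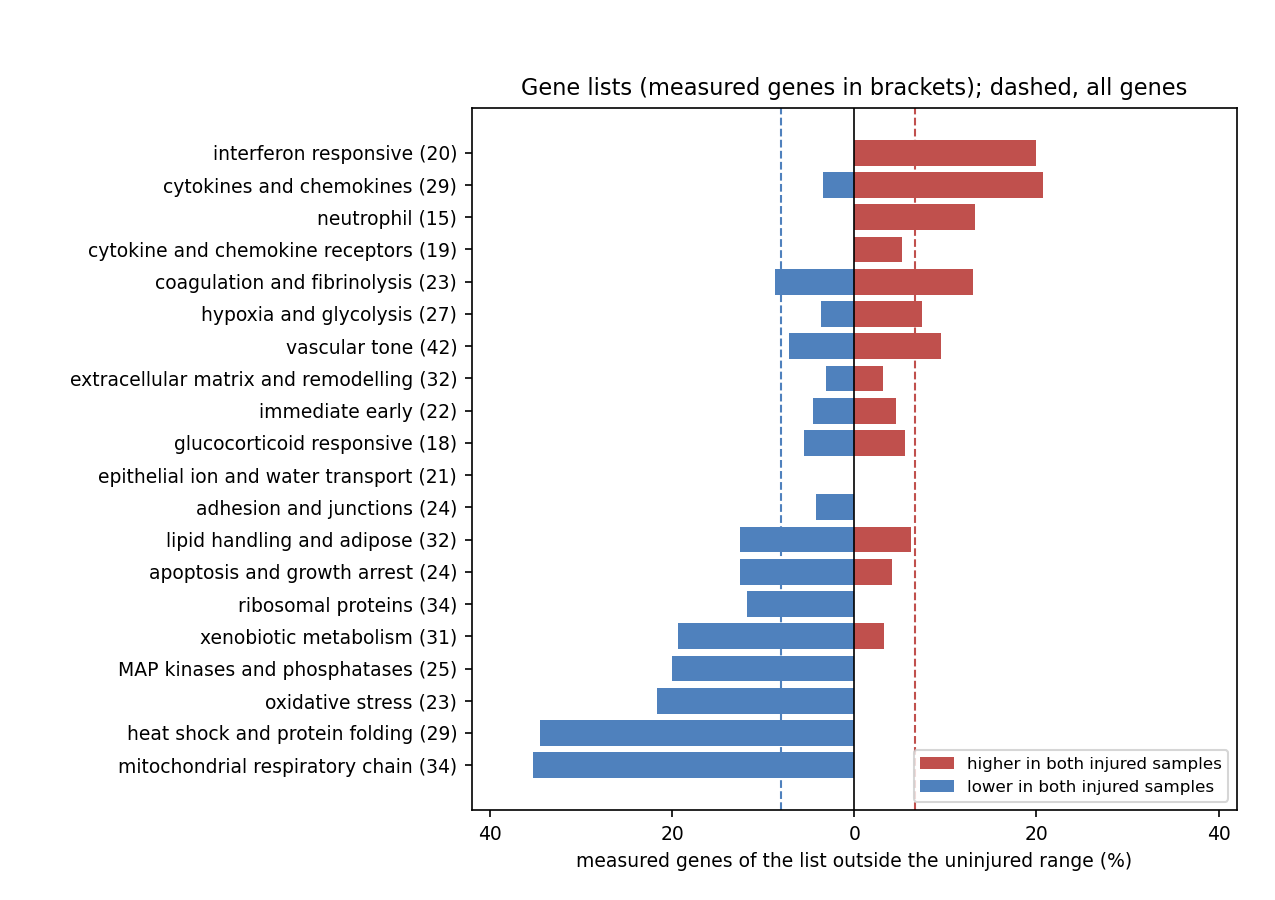
Percent of the measured genes of each of 20 lists that were higher (red, right) or lower (blue, left) than all uninjured samples in both injured samples; dashed lines mark the share of all 4736 genes (6.69% higher, 8.04% lower). The longest bars are lower genes of the mitochondrial respiratory chain (35.3%) and of protein folding (34.5%), and higher genes of cytokines (20.7%) and interferon-responsive genes (20%).

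Interferon-responsive genes were far above the uninjured range in 1 injured sample and close to it in the other. Mx1, an antiviral GTPase, had 886 units in the averaged T/HS sample and 22179 in T/HS replicate 2. It had 593 and 658 in T/SS, 833 and 667 in T/SS-LDL, and 771 and 843 in T/HS-LDL. Both injured samples were above the range, the averaged one by only 0.07 log2 units. The log2 difference of 2.62 ± 1.03 (limma adjusted p, 0.393) rests on replicate 2, which was 4.94 above the uninjured mean, against 0.30 in the averaged sample. Gbp2, a guanylate-binding GTPase induced by interferon gamma, had 225 and 5653 units against 154 to 216 (2.60 ± 1.03). Irf7, the transcription factor that amplifies type I interferon, had 476 and 5156 units against 331 to 423 (2.08 ± 0.77), and both of its probe sets were higher. Tap2, which carries peptides to MHC class I, differed most evenly of these, with 1418 and 4894 units against 741 to 1095 (1.57 ± 0.41).

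Over the 20 interferon-responsive genes measured, 4 were higher (20%, against 6.69% of all genes) and 0 lower. All 20 differences were above 0, with a median of 1.25. By sample, that median was 0.08 in the averaged one (0.06 over all genes) and 2.35 in replicate 2. Without the averaged sample, 19 of 20 were above the range. Without replicate 2, 4 were above it and 2 below. After quantile normalization 8 were higher. B2m (0.08 ± 0.08) and RT1-A (0.13 ± 0.08), of MHC class I, lay near the top of the scale and inside the range. Cxcl10, an interferon-induced chemokine named after its values were seen, was outside the range in 1 sample only, at 279 and 30947 units against 164 to 371. Other genes with large differences between the injured samples were Lgals9, a galectin (2223 and 5503 units against 1799 to 2175), and Cnp, a myelin enzyme also induced by interferon (812 and 2119.6 units against 641 to 807).

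Promoters were also searched for the interferon-stimulated response element, where IRF and STAT factors bind. It was read as GAAA, any 2 bases and GAAA, on both strands in the same windows. Of genes of any kind higher on at least 1 probe set, 22 of 356 held it (6.18%), among them Dmd, Muc4 and Sst. It was also in 5 of 410 lower genes (1.22%), 3.38% of the 3879 array genes and 4.12% of all 27457. The motif was chosen after the values were seen, and the difference in shares was not tested. Of the genes above, Irf7, Gbp2, Tap2 and Lgals9 held it, and these letters were not in the Mx1 window. Capitals mark the element, written in the direction of the gene, and each stretch ends at or before the gene start.
Irf7, chr1:205800058-205800117, minus strand: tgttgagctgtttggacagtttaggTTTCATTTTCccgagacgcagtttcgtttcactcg
Gbp2, chr2:234005671-234005726, plus strand: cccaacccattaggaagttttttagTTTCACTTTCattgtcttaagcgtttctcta
Tap2, chr20:4652303-4652362, minus strand: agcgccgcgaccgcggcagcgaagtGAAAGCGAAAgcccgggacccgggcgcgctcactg
Lgals9, chr10:64428071-64428111, minus strand: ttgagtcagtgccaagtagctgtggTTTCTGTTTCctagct
Tap2 carries the letters as searched and the other three as the reverse complement, all within 69 bases of the gene start.

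**Figure D4:**
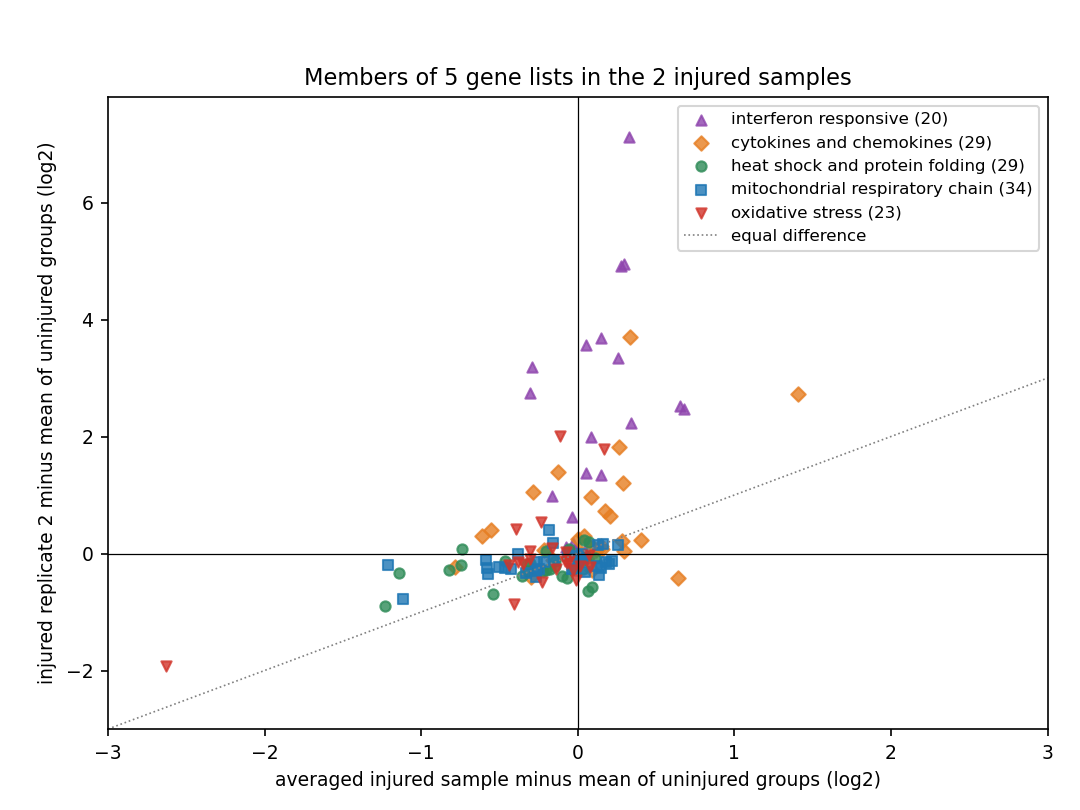
Difference of each injured sample from the mean of the uninjured groups (log2), the averaged T/HS sample across and T/HS replicate 2 upward, for the measured genes of 5 lists. Interferon-responsive genes (triangles) lie close to 0 across and up to 7.12 upward (Cxcl10), while protein-folding (circles) and mitochondrial genes (squares) lie mostly below 0 in both.

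Among the cytokines, Il1b and Ccl2 had the largest differences of those outside the range. Il1b, interleukin 1 beta, had 964 and 2113 units in injured samples. It had 265 and 305 in T/SS, 319 and 354 in T/SS-LDL and 716 and 870 in T/HS-LDL, so the shocked rats with a tied duct lay between the sham-shocked and the injured. The difference was 1.76 ± 0.27 (limma adjusted p, 0.188): 2.33 against T/SS, 2.09 against T/SS-LDL and 0.86 against T/HS-LDL. On its 2 brighter probe sets the averaged T/HS sample fell inside the range (2654 against at most 3233, and 1830 against at most 2238), with differences of 2.07 ± 0.31 and 1.81 ± 0.30. Ccl2, a monocyte attractant, had 295 and 942 units against 202 to 280 (1.15 ± 0.39), and its brighter probe set was outside in replicate 2 only (358 and 3670.5 against 211 to 380).

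Of 29 cytokines and chemokines, each taken by its brightest probe set, 6 were higher (20.7%, against 6.69% of all genes) and 1 lower. Without T/HS replicate 2, 9 were above and 5 below, and without the averaged T/HS sample 15 and 4. Of the 29, 6 lay in the brightest of the 4 signal bins. Dim probe sets were higher more often (10.6% in the dimmest bin), and the part of signal in this count was not tested. The higher cytokines included Ccl4, a macrophage chemokine (0.75 ± 0.22), Il1rn, the interleukin 1 receptor antagonist (0.45 ± 0.16), and Xcl1 (0.31 ± 0.11). The others were Ifng, interferon gamma (0.24 ± 0.08, with its dimmer probe set inside at -0.18 ± 0.11), Ccl20 (0.14 ± 0.07) and Csf3 (0.09 ± 0.08). The lower one was Il10, an anti-inflammatory cytokine. Of 19 cytokine and chemokine receptors, Ccr2, the receptor for Ccl2, was the 1 higher (0.38 ± 0.08), or 5.26%, and 0 were lower. That count was 0 higher and 2 lower after quantile normalization, 1 and 1 with arrays centred on their median, and 6 and 3 without either injured sample. Of 15 neutrophil genes 2 were higher (13.3%, against 6.69% of all genes) and 0 lower (against 8.04%). The higher ones were Ptafr, the receptor for platelet-activating factor (0.23 ± 0.12), and Cyba, a subunit of the NADPH oxidase (0.19 ± 0.09). Without the averaged T/HS sample the counts were 5 and 0, and without replicate 2 they were 3 and 1. The neutrophil genes of highest signal, Lcn2 (14828 and 27298 units against 9338 to 22577) and S100a9 (11982 and 25752 against 5624 to 27141), were inside the range.

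Among the other genes with large higher differences, Pde4b, a phosphodiesterase that breaks down cyclic AMP in leukocytes, had 210 and 495 units against 84.8 to 166 (1.45 ± 0.32), and 2 of its 4 probe sets were higher. Fst, follistatin, which binds activin, was higher on both probe sets, with 2220 and 4533 units against 1275 to 1711 (1.10 ± 0.24). Irf8, a transcription factor of myeloid cells, had 1062 and 1764 units against 444 to 896 (1.06 ± 0.24). Gda, guanine deaminase, had 7367 and 15184 units against 2721 to 7313 (1.22 ± 0.29), so that the averaged T/HS sample was only 0.01 log2 units above the range, and its brighter and dimmer probe sets were 0.11 and 0.04 above theirs. Both ligated groups were above T/SS (2721 and 2873 units). Ptpro, a receptor tyrosine phosphatase, had 1061 and 1362 units against 511 to 1004 (0.88 ± 0.22), 0.08 log2 units above the range, and its 2 dimmer probe sets were inside (0.37 ± 0.14 and 0.03 ± 0.10). Neurl3 (0.69 ± 0.13) and Abtb2 (0.68 ± 0.15) had narrow uninjured ranges, 658 to 732 and 304 to 362 units. Ccnd2, a D-type cyclin, had a wide one, with 1875 and 2025 units against 946.5 to 1551 (0.67 ± 0.18), and its dimmer probe set was inside (0.19 ± 0.12). Ppp1r10, a nuclear phosphatase regulator, had 2569 and 2354 units against 1249 to 1947 (0.65 ± 0.15).

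The 1 higher probe set at least 0.5 log2 units outside the range was annotated to Rpl19l4, a gene like the ribosomal protein L19, with 9615 and 5564 units against 927 to 3224 (1.69 ± 0.37). Ribosomal protein genes have many near-identical copies, so the source of this signal is uncertain. Of 34 ribosomal proteins, 0 were higher and 4 lower (11.8%, against 8.04% of all genes), the most different being Rpl35a (-0.27 ± 0.10). Their direction depended on the scaling, with 1 higher and 1 lower after quantile normalization. Without T/HS replicate 2, 7 were above and 8 below the range, and without the averaged T/HS sample 1 and 11.

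**Figure D5:**
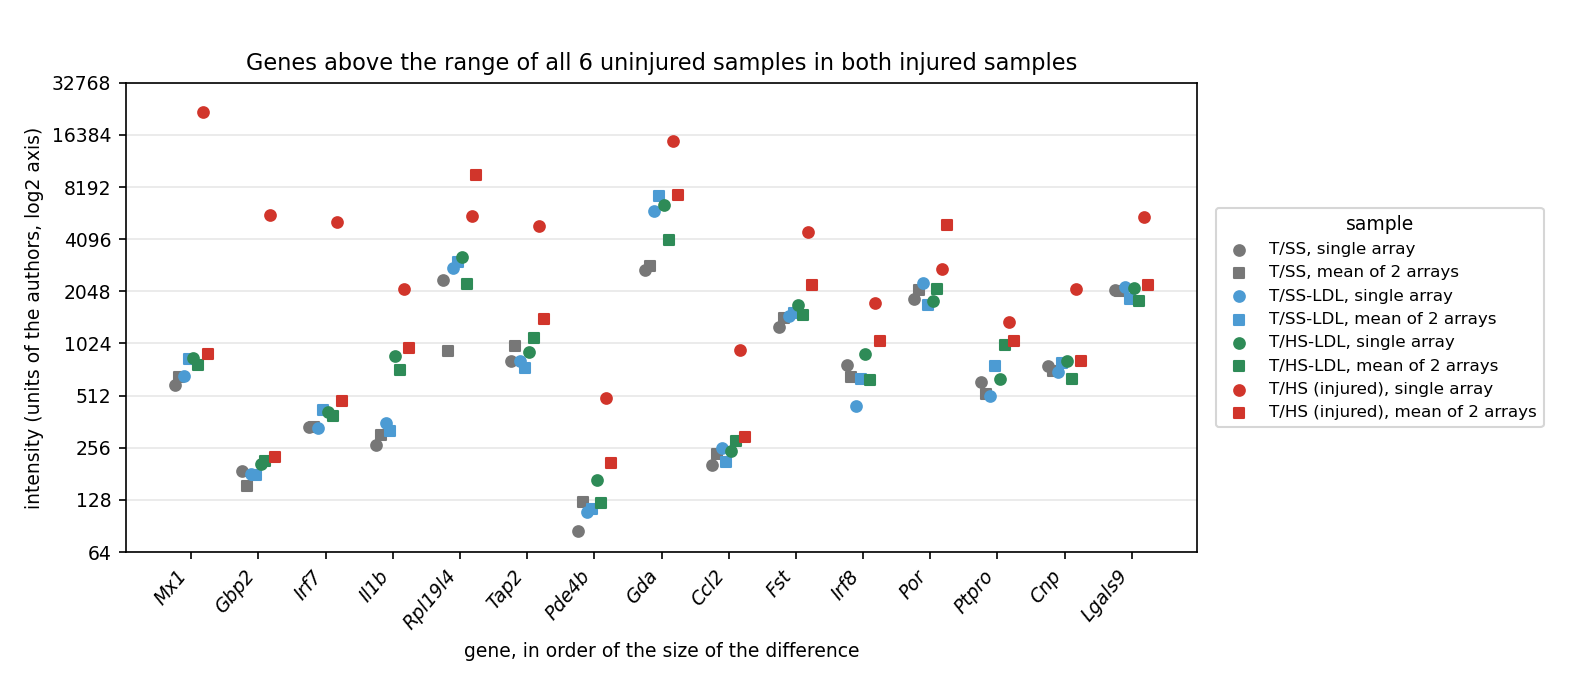
Intensity (log2 axis, authors' units) of the 15 genes with the largest difference among those above the uninjured range in both injured samples; symbols as for the lower genes. For Mx1, Gbp2 and Irf7 the single T/HS array lies far above and the averaged T/HS sample next to the uninjured ones (886 against at most 843 units for Mx1), and for Il1b and Fst both lie above.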

How the data were processed

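RNA of whole rat lung was hybridised to 12 one-colour Affymetrix RG-U34A arrays, 3 per group. Per the submitters' processing notes the deposited values were made with RMA; no version was given. The deposited intensity values were on a linear scale; log2 of each was taken, with no pseudocount, further scaling or filter. Leaving out 59 array controls, 8740 of 8799 probe sets were tested; 7006 carried 1 gene symbol, 308 several and 1426 none. Platform symbols were updated by gene ID through RefSeq (6985; 21 kept the platform's), which gave 4736 genes.

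Near-identical pairs of arrays (robust SD of log2 differences under 0.1) were averaged on the log2 scale. The 8 samples entered 1 linear model over the 4 groups (limma 3.58.1, R 4.3.3, lmFit with eBayes; 4 residual and 2.85 prior degrees of freedom), two-sided, with Benjamini-Hochberg adjustment over 8740 probe sets. Errors are limma standard errors; the differences are T/HS minus the mean of the 3 uninjured groups. The number of arrays limits the precision, and p-values measure only the spread between these samples. Lists took 1 probe set a gene, the one with the highest mean. The code was tested on simulated data.

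Genes outside the range were named by size (15 each way), distance from the range (10 each way), limma p (10), difference between the injured samples (8), and up to 4 per list with up to 2 of highest signal inside the range. The members and lists were chosen with earlier results of these data known. Same-numbered arrays were not paired: deviations from group means correlated above 0.1 in 3 of 18 pairs (-0.166 to 0.189). Alternatives were all 12 arrays, other scaling, a pseudocount, a signal filter, means per gene, wider margins and samples left out.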

Additional observations from a re-analysis of the deposited data

How the results depend on the processing

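Having 2 injured samples limits the precision. Against 0 probe sets past an adjusted p of 0.05, limma called 1408 (626 higher, 782 lower) with all 12 arrays as separate samples, 1090 with a block for the replicate number and 68 with a random block for each sample (correlation of its arrays, 0.961). The first 2 fits count near-identical arrays as independent. With 1 sample left out the count was 0 to 156: 156 without the averaged T/HS sample and 4 without T/HS replicate 2, where the lone injured sample is assumed to vary like the other groups; it was 0 without each of the 6 uninjured samples in turn. The 601 higher probe sets became 370 without the dimmest 25% of probe sets, 309 as means per gene, 13 at 0.25 and 1 at 0.5 log2 units; the 675 lower became 380, 80 and 11 in the last 3. Without 1 sample they ranged from 638 to 2430 and from 740 to 1976; without the averaged T/HS sample they were 1311 and 1976, and without replicate 2 they were 2430 and 1466. The 30 higher and 62 lower members of the pathway and cell type marker lists became 2 and 16 at 0.25, 0 and 7 at 0.5, and 56 and 110 with all probe sets counted. Without 1 sample the members ranged from 32 to 106 and from 64 to 138. They were 106 and 138 without the averaged T/HS sample and 102 and 128 without replicate 2. Quantile normalization (585 and 658), median centring (560 and 723), a pseudocount of 50 (601 and 675) and, chosen after seeing the data, 1 array of each pair (577 and 639) stayed within 1.5 times of the totals (their counts per list were added after seeing the data), and limma called 0 in each. The 159 named probe sets gave 2700 values under the alternatives. For those outside the range, direction and the adjusted p of 0.05 were checked, but not the size of the difference. Their direction was largely fixed by the rule that chose them, and 0 reversed. They passed the threshold in 81 values with all 12 arrays as separate samples, 78 with the replicate block and 26 with the random block. For those inside the range, 56 values moved by more than their error, all 56 without an injured sample.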
